A study of Mus musculus with 6 samples.

Results

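Interferon-responding tumour-line cells are described here: 672 cells that stood out among 22390 tumour cells by their counts of interferon-stimulated genes, out of 43929 barcodes in 6 single-cell RNA libraries. A barcode was taken as a tumour cell when it had at least 3000 UMIs (unique molecular identifiers, each standing for 1 captured RNA molecule), at most 20% mitochondrial UMIs, no more than 1 UMI of the myeloid gene Tyrobp, none of the leukocyte gene Ptprc or the endothelial genes Pecam1 and Cdh5, and at least 5 UMIs in sum of Spp1, Grem1 and Cdkn2a. Members are the top 3% of these cells, all libraries pooled, by the share of their UMIs that came from Ifit1, Ifit3, Ifit3b, Isg15, Usp18, Cxcl10, Gbp2 and Gbp3, called the rule genes below. The other 21718 tumour cells serve as the comparison.

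Tumours of Yumm5.2, an established melanoma cell line of mice, were raised by injecting 350000 cells under the skin of C57BL/6 mice. Every line carried a short hairpin RNA against Cdkn2a, so no group has cells without it. The control line had a control hairpin in addition, and the other lines had hairpin #1 or hairpin #2 against the zinc transporter gene Slc39a9. Mice with palpable tumours received 200 ug of anti-PD1, an antibody that blocks a T cell checkpoint receptor, or of control IgG, 3 times a week. Each line and treatment gave 1 library. Values for 6 libraries are listed line by line, the control first, then hairpin 1 and hairpin 2, with IgG before anti-PD1 in each. The number of tumours in a library is not in the labels, the knockdown libraries with 1 treatment come from different lines, and the control is 1 line. The p-values below therefore measure the spread between these libraries, part of which may be technical. Where the library is a block, it is the spread over libraries of the difference between members and other tumour cells.

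Interferons are secreted signals of infection and of immune attack. Type I interferons act through the receptor chains Ifnar1 and Ifnar2 and lead to a complex with Stat2 and Irf9 that binds the interferon-stimulated response element (ISRE) in promoters. Interferon gamma, released by T and NK cells, acts through Ifngr1 and Ifngr2 and leads to transcription from the gamma-activated sequence (GAS). Among the rule genes, Ifit1, Ifit3 and Ifit3b encode proteins that bind foreign RNA, Isg15 a ubiquitin-like modifier, Usp18 the protease that removes it and dampens type I signalling, Cxcl10 a chemokine that draws T cells, and Gbp2 and Gbp3 GTPases that attack the compartments of intracellular microbes. In melanoma, interferon gamma is known for raising both antigen presentation and the checkpoint ligand Cd274 (PD-L1).

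The stretches below were chosen because they show the motif shared by rule genes and by genes outside the rule that were far higher in members. Each is read 5′ to 3′ along the transcribed strand and lies upstream of the RefSeq start. Capitals mark matches to the ISRE letters, which are TTTC, any 2 bases and TTTC on one strand, or GAAA, any 2 bases and GAAA on the other, and overlapping matches run together.
Ifit1: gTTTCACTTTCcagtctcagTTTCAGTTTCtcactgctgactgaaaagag
Isg15: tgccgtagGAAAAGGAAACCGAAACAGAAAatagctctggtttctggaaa
Cxcl10: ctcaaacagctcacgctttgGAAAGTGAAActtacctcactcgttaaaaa
Gbp2: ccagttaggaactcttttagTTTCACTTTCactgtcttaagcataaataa
Rsad2: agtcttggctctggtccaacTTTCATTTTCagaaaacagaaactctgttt
Gbp5: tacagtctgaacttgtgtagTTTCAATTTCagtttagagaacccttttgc
Igtp: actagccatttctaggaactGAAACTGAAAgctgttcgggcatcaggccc
Stat2: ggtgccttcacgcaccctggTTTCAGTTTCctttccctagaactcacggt
The sequences and positions are from RefSeq on GRCm38.p6, the patched form of the mm10 build the counts use: Ifit1 at chr19:34640784-34640833 (+), Isg15 at chr4:156200855-156200904 (-), Cxcl10 at chr5:92349073-92349122 (-), Gbp2 at chr3:142620584-142620633 (+), Rsad2 at chr12:26456543-26456592 (-), Gbp5 at chr3:142496749-142496798 (+), Igtp at chr11:58199502-58199551 (+) and Stat2 at chr10:128270256-128270305 (+). All are promoter sequence outside the annotated transcript. Windows of 300 bases, from 250 before to 50 after the start, were found for 7 of the 8 rule genes, and all 7 held an ISRE match on one strand or the other. The same letters were in 3.75% of the 10026 tested genes with a window, in 41.1% (39 of 95) of those called higher in members by a log2 fold change of at least 2, in 11.7% (86 of 733) of all those called higher, in 5.81% (31 of 534) of those called higher by less than 1, and in 3.70% (24 of 648) of those called lower. Among the GTPase genes outside the rule that had a window, 7 of 8 held the ISRE letters and 6 of 8 the GAS letters TTCNNNGAA, which were in 8.17% of all tested genes with a window. Of the 7 rule genes with a window, which include the GTPase genes Gbp2 and Gbp3, 0 held the GAS letters. A match describes letters in a window, not a bound site.

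The score that chose the members was 12.3508 in the lowest member and 12.35 in the highest cell outside, in rule UMIs per 10000 UMIs. It was 26.9 in the median member and 466 in the highest, while 67.6% of tumour cells had no rule UMI. The edge is not a gap: 94 members and 130 other cells lay within 20% of it. Members held 65.4% of the 54944 rule UMIs of all tumour cells, with a median of 28 rule UMIs each (range 4 to 1963). All 8 rule genes were detected in 86 members, and 7 members were chosen on a single rule gene.

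The Y-linked genes Ddx3y, Uty, Kdm5d and Eif2s3y summed to 1.01 to 4.43 CPM (UMIs summed over the cells of a library and scaled to a common total, so that all genes of a sum add up to 1000000) in members, against 1.58 to 2.97 CPM in other tumour cells and 316 to 388 CPM in barcodes with at least 5 Tyrobp UMIs. The sum was higher in members than in other cells in 4 of 6 libraries, all but control IgG and hairpin 1 IgG. Pax3, a transcription factor of the melanocyte lineage, was at 65.7 to 95.9 CPM in members and 54.9 to 85.6 CPM in other cells. The pigment genes Tyrp1, Dct and Mlana had no UMI in members and 2 UMIs each in other tumour cells, so the pigment markers of melanocytes are absent from both. Xist, expressed in the tumour line and near absent from the Tyrobp-high barcodes, was at 28.7 to 104 CPM in members and 47.4 to 136 CPM in the others, and 14.02% of the hairpin 2 anti-PD1 members had a Xist UMI against 26.7% of the other cells of that library. Its difference passed the test (fell by 0.36, SE 0.11 on the log2 scale, adjusted p 0.0445). Of the 19 macrophage and monocyte genes tested, 2 were higher in members (Cd68, 4.02 to 26.2 CPM against 2.39 to 5.27 CPM, and Ctss, 6.02 to 42.4 CPM against 6.24 to 8.70 CPM); Ctss was higher in 3 of 6 libraries, most in control IgG. The list summed to 105 to 329 CPM in members and 106 to 160.0 CPM in other cells. Over all tested genes 7.12% were called higher. Of the 19 genes, 16 had a log2 fold change above 0 (median 0.32), against 46.0% of all tested genes (median -0.03). Of the T and NK list, Cd3e, Nkg7, Gzmb and Ifng had no UMI in members, and Ccl5 alone passed the low-count filter. The part that RNA of other cells may have in the differences below was not tested.

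The 6 libraries held 58859821 to 83204249 UMIs. Members had a median of 8406 to 11383 UMIs and other tumour cells 9942 to 14576, with the members' median lower in all 6 libraries. Slc39a9 was at 22.4, 20.7, 7.70, 8.26, 12.0 and 10.9 CPM in other tumour cells of the 6 libraries, and at 20.2, 20.3, 11.8, 15.1, 11.1 and 8.83 CPM in members. It was lower in every knockdown library than in both control libraries, in both kinds of cell. The same barcode sequences occurred in several libraries (9556 of 13064 distinct ones), and within each library their order followed the UMI total (Spearman correlation across barcodes -0.984 to -0.994), so a shared barcode marks a similar depth rank. Of barcodes with 3000 UMIs in a pair of libraries, the share that was tumour in both exceeded the share for unrelated cells by 0.0214 to 2.05 percentage points, and 22 barcodes were members in more than 1 library.

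Members were most frequent among the tumour cells of hairpin 2 anti-PD1, the only library whose counting interval overlaps no other. It was 1.91% in control IgG (79 of 4138 cells, 95% exact Clopper-Pearson interval 1.51 to 2.37), 2.11% in control anti-PD1 (90 of 4264, 1.70 to 2.59) and 2.48% in hairpin 1 IgG (64 of 2584, 1.91 to 3.15). It was 2.80% in hairpin 1 anti-PD1 (78 of 2789, 2.22 to 3.48), 2.18% in hairpin 2 IgG (90 of 4124, 1.76 to 2.68) and 6.03% in hairpin 2 anti-PD1 (271 of 4491, 5.36 to 6.77). The intervals cover counting error only. That library supplied 40.3% of all members.

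**Figure D1:**
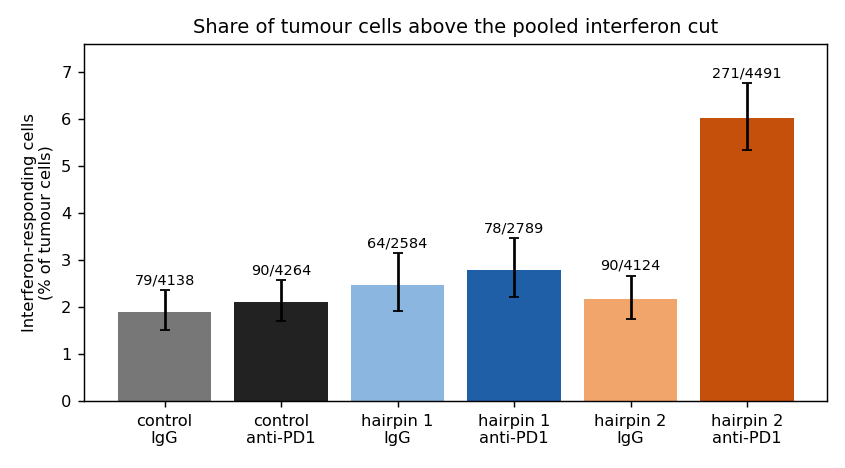
Members as a percent of the tumour cells of each library (bars, with members and tumour cells printed above), with 95% Clopper-Pearson intervals as error bars. Hairpin 2 anti-PD1 stands at 6.03%, and the other 5 libraries lie between 1.91% and 2.80%.

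Neither comparison of shares passed its test, and neither had enough arrangements to reach a p under 0.05. Knockdown libraries exceeded control libraries by 1.36 percentage points (exact permutation test over 15 arrangements, two-sided p = 0.4, n = 4 and 2), and by 0.475 points without hairpin 2 anti-PD1. Anti-PD1 exceeded IgG by 1.46 points on average over the 3 lines (exact paired permutation test, two-sided p = 0.25, the smallest that 8 arrangements allow), and by 0.261 points without the hairpin 2 line. The order of the libraries depended on the scoring. All 4 knockdown libraries lay above both controls, and anti-PD1 above IgG in all 3 lines, with the score as defined. After thinning to 3000 UMIs, hairpin 2 IgG (1.92%) was below both controls (2.34% and 2.16%), and anti-PD1 was below IgG in the control line and in hairpin 1 (2.94% against 2.98%). With a score from the 5 Ifit, Isg15 and Usp18 genes, both hairpin 1 libraries (2.24% and 2.12%) were below both controls (2.27% and 2.25%), and anti-PD1 was again below IgG in the control line and in hairpin 1. Under both of these settings the exact permutation p for anti-PD1 was 1. In the top 1% hairpin 1 IgG was lowest (0.503%), and in the top 5% hairpin 1 had 4.70% under anti-PD1 and 4.95% under IgG. When tumour cells were limited to those with no Tyrobp or Y-linked UMI and at least 1 Xist UMI, and the top 3% drawn anew, the share in hairpin 2 anti-PD1 was 3.74% (41 of 1097) and the others lay between 2.30% and 3.64%. This limit drops hairpin 2 anti-PD1 members more often than its other cells, since 14.02% against 26.7% had a Xist UMI. In the Tyrobp-high barcodes the 8 rule genes summed to 627 CPM in hairpin 2 IgG, 417 CPM in hairpin 2 anti-PD1 and 182 to 259 CPM in the other libraries. The part of host RNA in the shares was not tested.

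The rule genes are given as a description, since they chose the members. Isg15 was at 546 to 1329 CPM (median 798) over the libraries in members and 11.8 to 22.8 CPM (median 15.0) in other tumour cells, and 89.9% of members against 10.6% of others had a UMI. Gbp2 was at 676 to 1224 CPM (median 844) in members and 10.6 to 28.8 CPM (median 16.5) in others. Ifit1 was at 193 to 568 CPM (median 479) in members and 1.40 to 3.30 CPM (median 1.65) in others. These genes were low or absent in most tumour cells of every library. Cxcl10 was found in 40.9% of members and varied most, at 822, 438, 126, 769, 1183 and 668 CPM in the 6 libraries. It was lowest in hairpin 1 IgG and highest in hairpin 2 IgG. Ifit3 and Ifit3b are near-identical copies, with the same printed stretch of promoter around their ISRE match in the RefSeq table, so their single-gene values are uncertain.

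Members were not of 1 kind. In 389 of 672, Ifit1, Ifit3, Ifit3b, Isg15 and Usp18 held over 50% of the rule UMIs, in 169 Gbp2 and Gbp3 did, and in 26 Cxcl10 did. The Gbp2 and Gbp3 kind made up 40.6% and 41.0% of the members of the hairpin 1 libraries and 17.7% to 26.7% of the others. Of the 26 Cxcl10 cells, 12 were in hairpin 1 anti-PD1, which also held 20 of the 52 members with no UMI of the 5 Ifit, Isg15 and Usp18 genes.

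**Figure D2:**
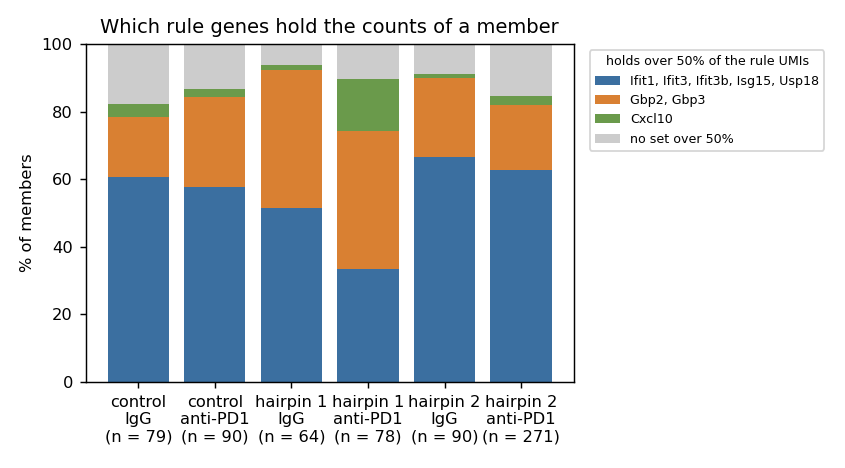
Percent of the members of each library in which 1 set of rule genes holds over 50% of the rule UMIs; bars sum to 100%. The Gbp2 and Gbp3 kind is larger in both hairpin 1 libraries (40.6% and 41.0%) than in the other 4 (17.7% to 26.7%).

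Outside the rule the kinds also differed, described here with no test because the split was made after the values were seen. Rsad2 was at 84.9 to 356 CPM (median 184) in cells of the Ifit kind and 5.70 to 83.4 CPM (median 44.8) in cells of the Gbp kind, and was lower in the Gbp kind in 6 of 6 libraries. Stat2, at 421 to 547 CPM (median 495) against 125 to 364 CPM (median 226), Irf9 and Ifit2 had the same order in 6 of 6. In the other direction, the microbe-attacking GTPase gene Iigp1 was at 5.96 to 987 CPM (median 545) in the Gbp kind and 22.5 to 242 CPM (median 85.5) in the Ifit kind, higher in 5 of 6 libraries. The exception was control IgG, with 14 cells of the Gbp kind and 1 Iigp1 UMI among them. The immunoproteasome gene Psmb9 (medians 47.7 and 5.13 CPM in the Gbp and Ifit kinds) and the MHC class I gene H2-K1 (medians 717 and 405 CPM) were higher in the Gbp kind in 5 of 6 libraries, and Gbp5 in 6 of 6. B2m did not keep 1 order over the libraries. Members outside both kinds are left out of these values. In control IgG they lay above both kinds in Rsad2: all members together had 270 CPM, against 111 and 83.4 CPM in the Ifit and Gbp kinds.

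The next comparison asked which genes outside the rule differed between members and other tumour cells of the same library. UMI counts were summed per library over members and over others, and edgeR's quasi-likelihood test with the library as a block was applied to 13213 genes that passed the low-count filter. The 8 rule genes stayed out of it. It called 1769 genes at an adjusted p under 0.05, 13.4% of those tested: 941 higher in members (7.12%) and 828 lower (6.27%). Of these, 677 were higher and 705 lower in 6 of 6 libraries, 258 were higher and 71 lower by a log2 fold change of at least 1, and the median over all genes was -0.03. Leaving out hairpin 2 anti-PD1 left 1155 calls, and leaving out the library block left 702 (455 higher, 247 lower). Genes long known to be induced together with the rule genes are counted in the same cells, so their direction is no independent evidence of an interferon response. The low-count filter took member status as its group, so a gene near 0 in other cells could pass through its level in members alone. For such a gene a call as higher was nearly fixed by the filter, and the list counts below lean that way.

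The antiviral effectors, genes that block stages of a virus's life cycle, were mostly higher in the sums over members. Of 51 that passed the filter 47 were called higher and 0 lower, with a median log2 fold change of 3.41. Some passed through members alone, such as Oas3 (0.0940 to 0.372 CPM in other cells, 1.00 to 11.4 CPM in members). The count of higher genes is raised by these. Rsad2 (viperin, which makes a chain terminator of viral RNA) was at 270.4, 180.4, 53.7, 115, 189.7 and 335 CPM in members, in the library order given, and at 0.607, 1.02, 1.14, 1.04, 1.99 and 1.51 CPM in other cells. Every member value was above every other-cell value, with a log2 fold change of 7.27 (SE 0.28) and an adjusted p of 1.13e-10, the largest log2 fold change among the genes named by size. These sums rest on a minority of members: 28.0% had a Rsad2 UMI, against 0.866% of other tumour cells. Mx1, a GTPase that traps viral nucleocapsids, was at 125, 61.9, 23.6, 30.1, 59.1 and 79.5 CPM in members and 0.525, 0.431, 0.549, 0.620, 0.301 and 0.533 CPM in others. The groups did not overlap, and the log2 fold change was 6.96 (SE 0.30). A Mx1 UMI was found in 26.6% of members and 0.585% of other tumour cells. Rsad2 and Mx1 were both lowest in the members of the hairpin 1 libraries.

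The same rule of size named Gm4951 (6.79), the nucleotide kinase gene Cmpk2 (6.55), Ifi206 (6.32), Ifi44 (6.29), Oasl1 (6.02), Phf11d (5.62), the helicase gene Ddx60 (5.51), Oasl2 (5.49) and Ifi205 (5.22), each a log2 fold change, higher in 6 of 6 libraries. Bst2 (tetherin, which holds budding virions at the cell surface) was more abundant: 654 to 897 CPM (median 695) in members and 40.2 to 72.1 CPM (median 52.2) in others, a log2 fold change of 3.83 (SE 0.13). Ifitm3, which blocks fusion of virus and endosome, was the most abundant of the list and had a smaller difference, with 1236 to 1620.4 CPM in members, 644 to 896 CPM in others and a log2 fold change of 0.94 (SE 0.05). Its relatives Ifitm1 (-0.00484) and Ifitm2 (-0.07), Epsti1 (-0.20) and Slfn2 (1.48) were not called. With every cell thinned to 3000 UMIs, a member held UMIs of a median of 12 of 60 antiviral genes outside the rule and another tumour cell of 3.

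All 15 tested GTPases of the GBP and IRG families outside the rule, which attack vacuoles that hold microbes, were called higher, with a median log2 fold change of 4.70. The limit set by the filter holds here too, since Gbp6 was at 0.132 to 0.380 CPM in other cells. Gbp5 was at 99.9, 38.9, 97.7, 82.3, 149 and 118 CPM in members and 0.837, 0.706, 0.907, 1.71, 1.17 and 1.53 CPM in others (6.43, SE 0.19, adjusted p 6.42e-12), with no overlap. Iigp1 was at 60.5, 44.2, 368, 366, 220.0 and 288 CPM in members and 0.509, 0.276, 8.78, 3.30, 1.52 and 4.31 CPM in others (6.43, SE 0.22). The 4 knockdown libraries had the higher Iigp1 level both in members and in other cells. F830016B08Rik had the same pattern, with 5.04 and 6.19 CPM in control members and 30.3 to 45.4 CPM in knockdown members. Igtp rose by 5.32 (SE 0.14), with an adjusted p of 2.85e-12. Near-identical copies exist within these families and among the Apol9 and MHC class I genes, so single-gene values there are uncertain.

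The signalling chain differed by level. The receptor genes Ifnar1 (0.09, SE 0.09), Ifnar2 (0.32, SE 0.10, adjusted p 0.0543), Ifngr1 (0.25, SE 0.12) and Ifngr2 (0.12, SE 0.10) were not called, and of the 8 receptor and kinase genes tested only Jak2, the kinase of the interferon gamma receptor, was (0.85, SE 0.15). Ifnar2 was higher in 6 of 6 libraries and was called by DESeq2 and in 3 of the other alternatives. Of 11 transcription factors 9 were called higher. Stat2 was at 460.0, 402, 345, 229.9, 489 and 452 CPM in members and 31.1, 32.3, 32.5, 30.6, 38.1 and 38.7 CPM in others (3.55, SE 0.11, adjusted p 6.42e-12). Its lowest member value was above its highest other-cell value. Irf9 (2.74, SE 0.11), Irf7, which drives interferon alpha genes (5.40, SE 0.21), Irf1 (1.72, SE 0.19) and Nlrc5, the activator of MHC class I genes (3.19, SE 0.35), were also higher, while Irf3 (-0.03) was not called.

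Of 14 nucleic acid sensor genes tested 7 were called higher: those of the RNA helicases Ddx58 (RIG-I, 2.95, SE 0.16), Ifih1 (MDA5, 5.02, SE 0.28) and Dhx58 (4.21, SE 0.25), Zbp1, Tlr3 (2.58, SE 0.34), Myd88 and Tbk1. Ifih1 was at 169.7 to 359.5 CPM (median 248) in members and 4.63 to 13.4 CPM (median 6.99) in others. The DNA sensor genes Mb21d1 (cGAS, 0.14) and Tmem173 (STING, -0.08) and the adaptor gene Mavs (-0.24) were not called. The 3 tested genes of ISG15 attachment, Uba7, Ube2l6 and Herc6, were higher. Of 6 negative feedback genes outside the rule, Socs1, which inhibits Jak kinases, was called (0.89, SE 0.17, 13.1 to 18.5 CPM against 7.75 to 9.35 CPM) and Socs3 (0.26) was not.

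Ifnb1, the interferon alpha genes measured, Ifnab, Ifnl2, Ifnl3 and Ifng had no UMI in 672 members, which allows a share of cells with a UMI of up to 0.446%. Ifng had 2 UMIs in the 21718 other tumour cells. Of the rest of the list, Ifnz had 5 UMIs and Ifne 1 UMI in members.

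Antigen presentation on MHC class I, by which tumour cells show peptides to CD8 T cells, was higher in members: 18 of 21 tested genes were called higher and 1 lower (median 1.62). B2m, the light chain, was at 1553, 1257, 1501, 1523, 1437 and 1380.0 CPM in members and 469, 460.5, 557, 627, 453 and 501 CPM in others (1.53, SE 0.07, adjusted p 3.84e-10), with no overlap. The heavy chain gene H2-K1 was at 291, 183, 935, 852, 492 and 375 CPM in members and 40.9, 45.4, 201, 187, 70.4 and 71.2 CPM in others (2.44, SE 0.10). It was higher in members within each library, yet other cells of both hairpin 1 libraries lay above the control anti-PD1 members. The peptide transporter gene Tap1 (4.74, SE 0.31) and the immunoproteasome genes Psmb8 (3.40, SE 0.20) and Psmb9 (4.17, SE 0.27) had larger log2 fold changes than B2m, a difference not tested. The called fall was in Calr, a chaperone of the endoplasmic reticulum, which fell by 0.30 (SE 0.06) and was no longer called in 5 of the alternatives. Pdia3 (-0.15) and Canx (-0.10), of the same folding machinery, were not called.

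Of 10 tested checkpoint ligand genes 6 were called higher, against 7.12% of all tested genes. The lists share some genes: Lgals9 is also among the antiviral effectors and H2-T23 among the MHC class I genes. Zbp1, Herc6 and Nlrc5 likewise stand in more than 1 list, so the list counts are not separate results. Cd274 was at 35.3, 28.3, 18.3, 17.1, 81.2 and 18.3 CPM in members and 1.64, 1.79, 1.75, 1.61, 1.50 and 1.31 CPM in others (4.22, SE 0.31, adjusted p 1.23e-07). It was highest in hairpin 2 IgG, and its lowest member value, 17.1 CPM, was far above the other cells. Cd47, the signal against phagocytosis, was also higher (0.36, SE 0.07). Among 12 tested chemokine genes outside the rule 5 were higher, led by Ccl5 (4.65, SE 0.38, 14.1 to 197 CPM against 1.05 to 5.12 CPM). Ccl7 (1.21, SE 0.26) and Ccl2 (0.99, SE 0.25) were higher in 5 of 6 libraries, and the call on Ccl2 was lost without control anti-PD1, without hairpin 1 anti-PD1, without the block and in DESeq2 (adjusted p 0.0511 to 0.11). Cxcl9, a T cell chemokine and textbook interferon gamma target, lay below the filter: 208 UMIs in members and 65 in others, found in 10.3% of hairpin 1 anti-PD1 members and in no control member. The MHC class II genes Cd74 (1.63, SE 0.31), H2-Aa, H2-Ab1 and H2-Eb1 were called at low levels (Cd74 5.05 to 37.7 CPM against 3.51 to 6.42 CPM), and Cd74 was not called after thinning, in the top 1% or in cells with Xist and no Tyrobp or Y-linked UMI (adjusted p 0.0777, 0.461 and 0.200). Cd74 was at 2221 to 5039 CPM in the Tyrobp-high barcodes.

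**Figure D3:**
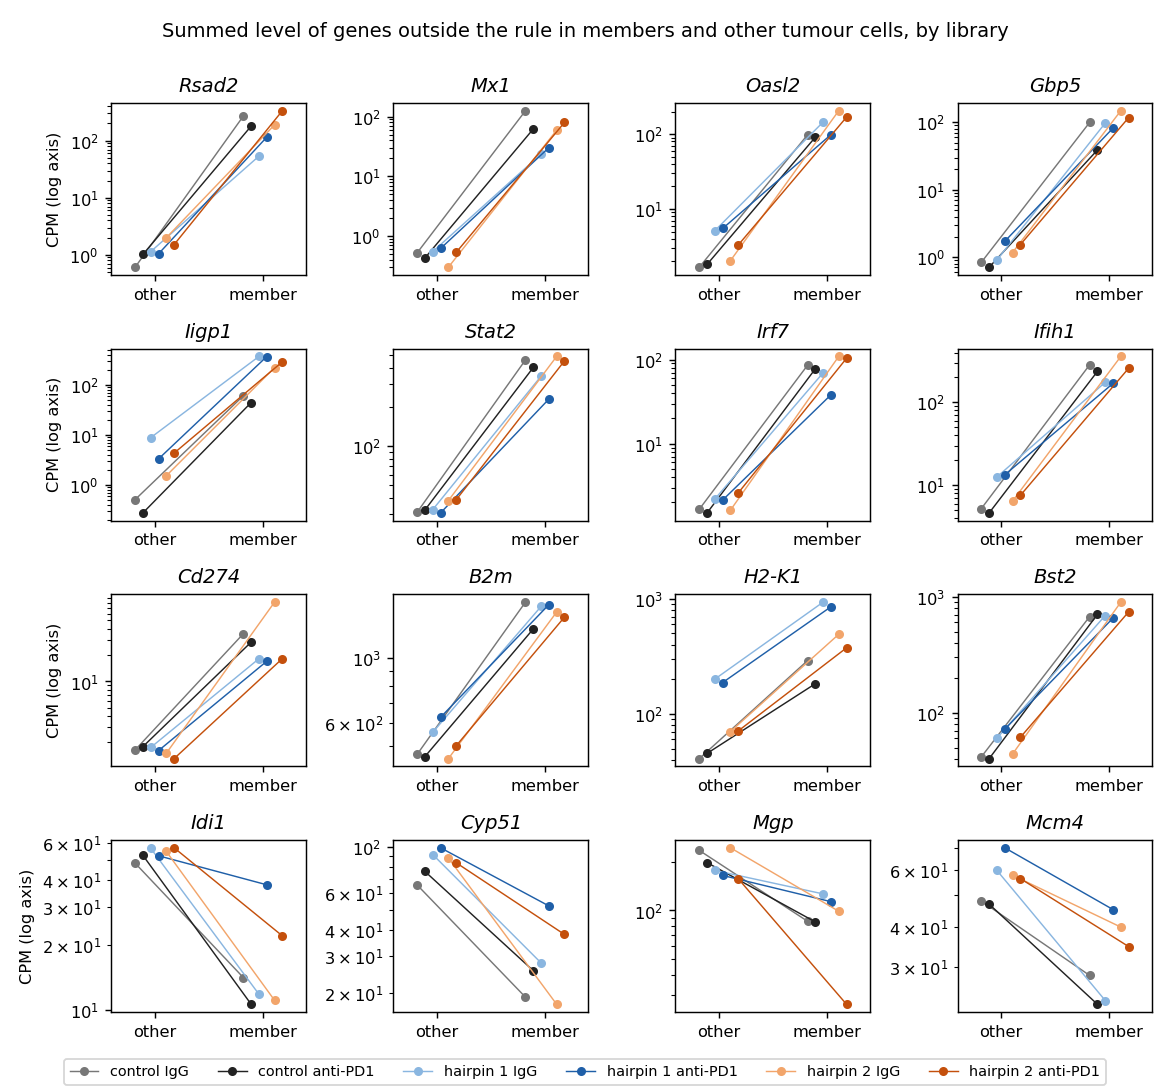
Level of 16 genes outside the rule in other tumour cells (left) and members (right) of each library, as CPM of summed UMIs on a log axis; each line joins the sums of 1 library. The first 12 genes, interferon-stimulated or of antigen presentation, were higher in the members of all 6 libraries, and Idi1, Cyp51, Mgp and Mcm4 were lower in all 6.

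Inflammatory and cell death genes had smaller log2 fold changes. Over all tested genes 7.12% were called higher. Of 20 tested NF-kB and inflammatory genes 9 were called higher (median 0.44), among them Nfkbia (0.44, SE 0.08), Il6 (2.06, SE 0.40) and Lcn2 (1.29, SE 0.22), and the count was 1 without the library block, 5 without control IgG and 6 without hairpin 2 anti-PD1. The protease gene Mmp13 was higher in 6 of 6 libraries (1.57, SE 0.15, 223 to 909 CPM against 117 to 208 CPM). Of 17 cell death genes 9 were higher, including the necroptosis effector gene Mlkl (1.06, SE 0.12), Casp4, which senses bacterial lipid (0.92, SE 0.08), Pmaip1 (Noxa, 0.89, SE 0.10) and the nuclear body genes Daxx (1.77, SE 0.17) and Pml (1.44, SE 0.15). Bax (0.07) was not called.

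Genes of sterol synthesis were lower in members, a list drawn up after Idi1, Cyp51, Msmo1 and others had appeared among the 8 named genes that fell most. Of 20 enzymes from acetyl-CoA to cholesterol, 17 were called lower and 0 higher, with a median log2 fold change of -0.81; the exceptions were Tm7sf2 (-0.47), Ebp (-0.12) and Dhcr7 (-0.10). Their summed level was 379, 393, 535, 689.7, 363 and 584 CPM in members and 818, 884, 1009, 997, 922 and 952 CPM in other cells, in the library order given. Every member sum was below every other-cell sum, and the 2 control libraries and hairpin 2 IgG were lowest. Idi1, which makes an isoprene building block, was at 14.1, 10.6, 11.8, 38.1, 11.1 and 22.1 CPM in members and 48.1, 52.3, 56.4, 52.1, 54.5 and 56.7 CPM in others, and fell by 1.55 (SE 0.19) on the log2 scale (adjusted p 6.49e-05). Cyp51 fell by 1.45 (SE 0.14) and Msmo1 by 1.18 (SE 0.12), each lower in 6 of 6 libraries.

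Of 13 tested genes of sterol control and fatty acid synthesis, a list also chosen after values were seen, 5 were called lower and 2 higher. The sterol carrier gene Stard4 fell by 1.13 (SE 0.14) and Srebf2, the transcription factor of the pathway, by 0.67 (SE 0.09). The exporters of cholesterol, Abca1 (0.53, SE 0.10) and Abcg1 (0.97, SE 0.20), were higher in 6 of 6 libraries. In fatty acid synthesis Elovl6 fell by 1.31 (SE 0.12) and Fasn by 0.44 (SE 0.13), while Scd1 (-0.04), Scd2 (-0.15), Acaca (-0.27) and Srebf1 (-0.01) were not called. Of the 20 enzymes, 14 were called lower without hairpin 2 anti-PD1, 11 after thinning, 10 in the top 1% and 10 in cells with Xist and no Tyrobp or Y-linked UMI.

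Genes of DNA replication were lower and those of glycolysis and hypoxia higher. Over all tested genes 6.27% were called lower and 7.12% higher. Of 28 S phase genes 12 were called lower and 0 higher (median -0.60), among them Mcm4, a part of the replicative helicase, which fell by 0.76 (SE 0.11), and Uhrf1, which fell by 1.12 (SE 0.15). Mcm4 was at 28.2, 22.99, 23.6, 45.2, 39.9 and 34.7 CPM in members and 48.0, 46.9, 59.7, 70.2, 57.7 and 56.3 CPM in others, with every member value below every other-cell value. The count was 5 without the library block, 6 after thinning, without hairpin 1 IgG or in the top 1%, 9 without hairpin 2 anti-PD1, 21 without the low-count filter and 23 in the top 5%. Of 30 G2/M genes 3 were called lower and 0 higher (median -0.53), little above the 6.27% called lower over all tested genes. Cdk1 (-0.31) and Top2a (-0.48) were not called. The count of lower G2/M genes was 14 after thinning or in the top 1% and 0 without the block. Leaving out the IgG library of hairpin 2 gave 1, that of hairpin 1 under anti-PD1 5, and that of hairpin 2 under anti-PD1 6. In the library order used above, the list summed to 1208, 179.5, 1760.1, 2231, 916 and 1654 CPM in members and 1309, 1256, 1991, 2553, 2095 and 1735 CPM in other cells. Control anti-PD1 members stood apart, with Mki67 at 2.65 CPM against 67.6 CPM and Top2a at 18.6 CPM against 166 CPM in the other cells of that library. Below the 99th percentile of the score, hairpin 1 members (2169 and 2720 CPM) were not below the cells of their libraries with no rule UMI (1992 and 2483 CPM). Nor were those of hairpin 2 anti-PD1 (1990 CPM against 1702 CPM), while those of both control libraries and of hairpin 2 IgG were below. In the top 1% only control IgG members (1868 CPM) were above such cells of their library (1228 CPM). Of 26 genes of glycolysis and the hypoxia response 23 were called higher and 0 lower (median 0.56). Pgf, a growth factor of vessels (1.31, SE 0.23), the glucose transporter gene Slc2a1 (0.87, SE 0.09), Bnip3 (0.96, SE 0.10) and Ero1l (0.91, SE 0.08) were examples, and the count was 21 without hairpin 2 anti-PD1, 13 in cells with Xist and no Tyrobp or Y-linked UMI, 10 without the block and 8 in the top 1%.

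Of 13 mesenchymal state genes 7 were called lower and 1 higher. Mgp, an inhibitor of calcification, was at 85.7, 84.9, 127, 113, 98.9 and 26.2 CPM in members and 236, 198, 177, 165, 245 and 157 CPM in others and fell by 1.23 (SE 0.19, adjusted p 5.11e-04). It was lowest in hairpin 2 anti-PD1 members. The collagen gene Col3a1 fell by 0.59 (SE 0.10), the higher gene was Thbs2 (0.38, SE 0.08), and the count of lower genes was 1 in cells with Xist and no Tyrobp or Y-linked UMI and 2 without the block. The neuropeptide gene Tac1 fell by 1.61 (SE 0.28), with 0 to 74.6 CPM in members and 33.8 to 146 CPM in others, and had no UMI in the 78 hairpin 1 anti-PD1 members. Gm13889 fell by 1.21 (SE 0.23), with overlap between the groups. Metallothionein genes, which bind zinc, were higher (Mt1 0.65, Mt2 0.58), while Slc39a9 did not pass the test (0.11, SE 0.18).

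**Figure D4:**
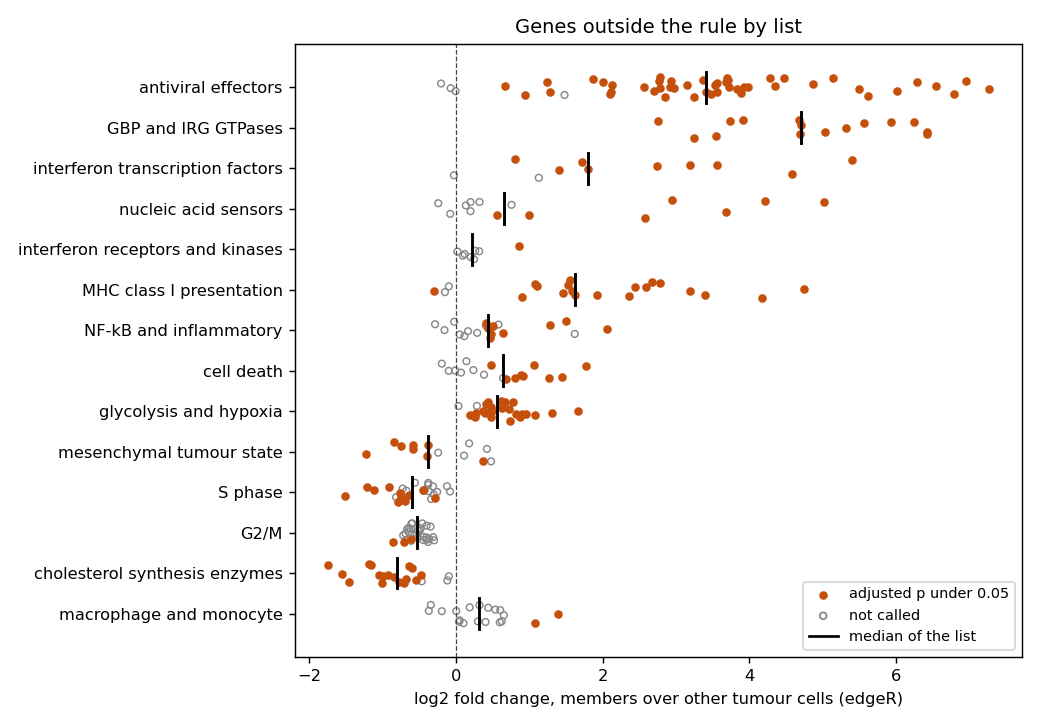
Log2 fold change of each tested gene between members and other tumour cells (points, filled where edgeR's adjusted p was under 0.05), by gene list, with list medians as black bars. The interferon lists reach medians of 3.41 and 4.70, the receptors stay near 0, and the S phase genes (median -0.60) and cholesterol enzymes (median -0.81) lie below 0.

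Levels outside the rule were then followed along the score. Genes induced together with the rule genes are counted in the same cells, so their rise with the score is no independent evidence. Tumour cells were put in 5 bins: no rule UMI, up to the 90th percentile, from there to the members' edge, members up to the 99th percentile, and the top 1%. The summed antiviral effectors outside the rule had medians over the libraries of 1670.3, 1816, 3090.1, 6156 and 10901 CPM in these bins. The GBP and IRG genes outside the rule had medians of 41.9, 69.1, 283, 1039.9 and 2465 CPM, and the interferon transcription factors 165, 200.0, 397, 903 and 1549 CPM. These sums in the 1567 cells just under the edge lay between those of the members and of the cells with no rule UMI. A sum over a bin cannot tell cells at a middle level from a mix of high and low cells. MHC class I genes had medians of 3185, 3418, 4038, 5083 and 6759.7 CPM. S phase genes had medians of 1087, 1174, 876, 776 and 726 CPM, and the macrophage list 148, 123, 158, 137 and 126 CPM. The macrophage sum was highest in hairpin 2 IgG and control IgG among members below the 99th percentile, at up to 461 CPM.

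**Figure D5:**
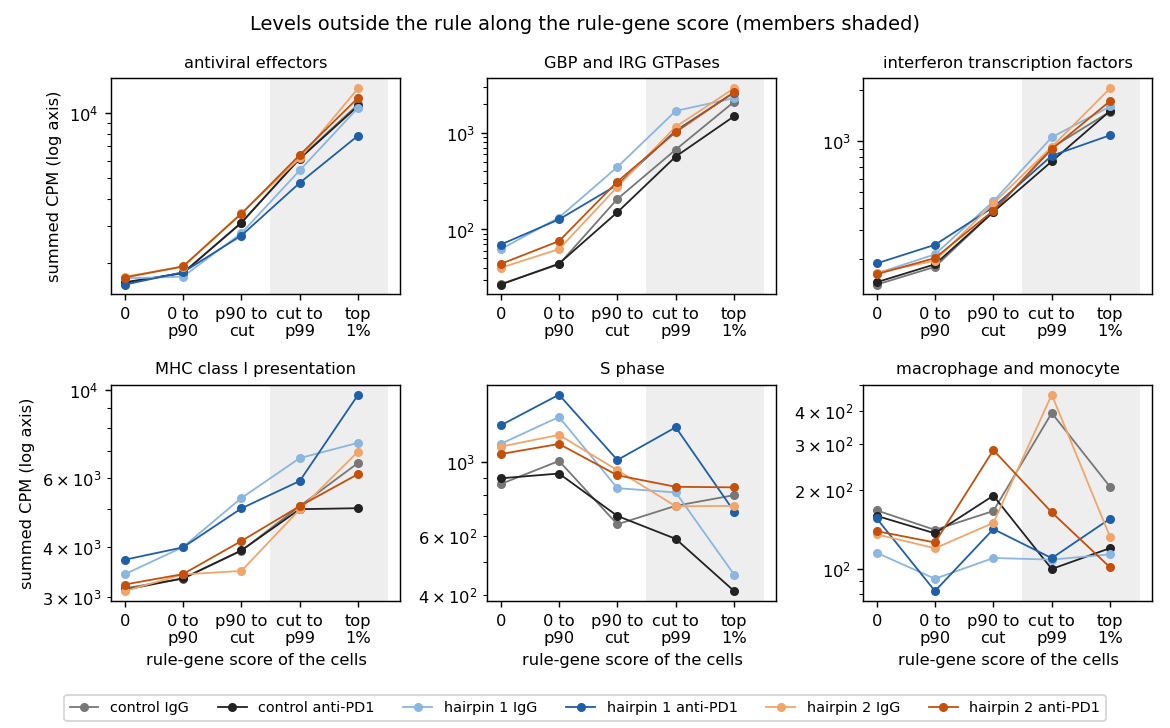
Summed CPM (log axis) of 6 gene lists without the rule genes in tumour cells binned by the rule-gene score, 1 line per library, members shaded. Antiviral, GTPase and transcription factor sums climb from bin to bin in all libraries (antiviral medians 1670.3 to 10901 CPM), while the macrophage list shows no such climb.

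Members of knockdown libraries were then compared with members of control libraries. The question was whether expression in interferon-responding cells differs where Slc39a9 is partly lowered. Of 9514 genes tested with edgeR 1 was called, 0.0105% of those tested. Dusp4, a phosphatase that turns off MAP kinases, was at 112 and 140.6 CPM in control members and 18.3, 27.1, 23.6 and 36.6 CPM in knockdown members, and fell by 2.30 on the log2 scale (SE 0.21, adjusted p 0.0186). All knockdown values were below both control values. In other tumour cells the gene was at 62.0 and 54.2 CPM in control and 30.6 to 39.2 CPM in knockdown libraries. DESeq2 called 25 genes in this comparison, 916 had an unadjusted p under 0.05, and Dusp4 stayed called in 2 of the 6 fits that left out 1 library each (without hairpin 2 IgG or hairpin 2 anti-PD1) and was not called in the other 4, with adjusted p from 0.0658 to 0.342. The 4 knockdown libraries come from 2 lines and the 2 control libraries from 1. Libraries of 1 line deviated together and the fit has no term for line, so this p may be too small.

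Members under anti-PD1 against members under IgG gave 1 call among 9139 genes (0.0109%). Sprr1a, a protein of the cornified envelope, was at 1.01, 1.07 and 6.64 CPM under IgG and at 15.9, 87.3 and 115 CPM under anti-PD1 in the control, hairpin 1 and hairpin 2 lines, a log2 fold change of 4.48 (SE 0.43, adjusted p 0.0280). Each anti-PD1 value was above every IgG value. In other tumour cells it was at 3.99 to 15.1 CPM with no such order. With the line as a replicate block 2 genes were called, Sprr1a with an adjusted p of 0.00404. DESeq2 called 2 genes, and 214 had an unadjusted p under 0.05. Sprr1a stayed called in 1 of the 6 fits that left out 1 library each, that without hairpin 2 IgG, and was not called in the other 5 (adjusted p 0.0608 to 0.628).

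The test of whether the member difference itself depends on the knockdown called 3 of 13213 genes (0.0227%), all with a more negative difference in knockdown libraries. Dusp4 was higher in members than in other cells in both control libraries and lower in all 4 knockdown libraries (interaction -1.52, SE 0.20, adjusted p 0.0128). The stromelysin gene Mmp3 was at 2470.4 and 1934 CPM in control members against 968 and 839.5 CPM in other control cells, and at 278 to 1624 CPM in knockdown members against 294 to 1049 CPM in other knockdown cells (interaction -1.35, SE 0.20, adjusted p 0.0313). Dmp1, a bone matrix protein gene, had an interaction of -4.09 (SE 0.56, adjusted p 0.0128), with 109.95 CPM in control IgG members and 17.7 CPM in control anti-PD1 members, so 1 library carries most of its control level. Dmp1 was not called without control IgG (adjusted p 0.403), Dusp4 without control anti-PD1 (0.353), and Mmp3 without control anti-PD1 (0.373) or hairpin 2 anti-PD1 (0.083). In DESeq2 Dusp4 and Mmp3 were called, and Dmp1 had an unadjusted p of 0.00832 and no adjusted p. For anti-PD1 1 gene was called (0.00757%): Acta2, smooth muscle actin, at 29.3, 61.2 and 12.6 CPM in IgG members and 3.54, 3.01 and 1.89 CPM in anti-PD1 members of the control, hairpin 1 and hairpin 2 lines, while other cells lay at 2.11 to 29.1 CPM (interaction -4.11, SE 0.47, adjusted p 0.00299). It stayed called in all 6 fits that left out 1 library each. Of the interferon genes named above, none was called in either interaction; the unadjusted p was under 0.05 for 617 genes by knockdown and 547 by anti-PD1.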

How the data were processed

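Single-cell UMI counts per gene and barcode were used as deposited by the authors, who made them with Cell Ranger 7.0.1 on mm10, per the submitters' processing notes; no other step of theirs is given in the sources used here. Reads were not realigned, and free RNA was not removed. The members and gene lists were chosen with earlier results of these data known; the sterol lists and the split into kinds of members were added after the values were seen.

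Counts were summed per library over members and over other tumour cells. Genes that passed filterByExpr were tested with edgeR 4.0.16 (R 4.3.3) by the quasi-likelihood test with TMM scaling, Benjamini-Hochberg adjustment and a threshold of 0.05. Members against others had the library as a block; the within-member tests took treatment or knockdown as the other term; the interactions were fitted on all 12 sums. The rule genes stayed in library totals and out of the tests. The edgeR tests were checked on simulated data in which libraries were drawn independently of each other. Named genes had a mean of at least 10 CPM, an adjusted p under 0.05 and 1 direction in all 6 libraries, and were the 16 highest and the 8 lowest by fold change; other genes come from the lists, and most of those examples were picked after their values were seen. The lines pair the libraries by label: deviations of the member sums correlated at 0.399, 0.494 and 0.174 in the control, hairpin 1 and hairpin 2 lines over 7168 genes.

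Alternatives were DESeq2 1.42.0, no low-count filter, no block or an added one, other score thresholds, thinning, a stricter tumour gate, Scrublet doublets removed (0.883% to 1.67% of barcodes, scanpy 1.11.5), a score from 5 genes, and leaving out each library. Some genes are not reported here.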

Additional observations from a re-analysis of the deposited data

Results flagged for a closer look

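Hairpin 2 anti-PD1 stood apart from the other 3 knockdown libraries in the share of tumour cells that were members, at 6.03% against 2.18% to 2.80%. Under the stricter tumour gate it did not stand apart, with 3.74% against 3.64% in hairpin 1 anti-PD1. That gate requires a Xist UMI, found in 14.02% of hairpin 2 anti-PD1 members and 26.7% of the other cells there. It drops members of that library more often than other cells, so it cannot decide whether the library stands apart. Of 41 sets of values searched this way 1 had such a sample; chance gives about 1 in 20, so this is no excess.

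By edgeR's interaction term, the difference between members and other tumour cells varied with the knockdown for Dusp4 (interaction -1.52 on the log2 scale), Dmp1 (-4.09) and Mmp3 (-1.35), and with anti-PD1 for Acta2 (-4.11). Each of the first 3 lost the call in 1 or 2 of the 6 fits that left out 1 library, Dmp1 had no adjusted p in DESeq2, and none of the 3 was called in the top 5%; Acta2 stayed called in all 6 fits that left out 1 library.

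Ifnb1, the interferon beta gene, had no UMI in tumour cells and 80 UMIs in 6 barcodes outside the tumour gate. Of these UMIs, 65 were in 1 hairpin 2 IgG barcode with 6 Tyrobp, 10 Ptprc and 129 rule gene UMIs among 4517, and 9 in 1 control anti-PD1 barcode.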

How the results depend on the processing

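Of the 1769 genes called between members and others, the count was 702 with no replicate block, 603 in the top 1%, 2772 in the top 5%, 1036 after thinning to 3000 UMIs and 659 under the stricter tumour gate; it was 1155 to 1761 when 1 library was left out. The split was 741 higher and 1256 lower with no low-count filter, 410 and 193 in the top 1%, and 436 and 223 under the stricter gate, against 941 and 828. Knockdown within members gave 25 calls in DESeq2, 343 with no filter, 0 in the top 5% by edgeR (1461 at an unadjusted p under 0.05) and 0 to 12 without 1 library. Anti-PD1 within members gave 2 in DESeq2, 54 with no filter, 2 with the replicate block, 0 in the top 5% by edgeR (166 at an unadjusted p under 0.05) and 0 to 3 without 1 library. The knockdown interaction gave 14 in DESeq2, 82 with no filter, 0 in the top 5% by edgeR (823 at an unadjusted p under 0.05) and 3 to 34 without 1 library; the anti-PD1 interaction gave 56 with no filter and 3 to 17 without 1 library. Xist reversed under the stricter gate, which selects cells on Xist, from -0.36 to 0.0395. Other causes were not tested. Over 80 single genes and their alternatives, 1225 values kept direction and side of the threshold, 47 lost the call, 7 gained it and 1 reversed. With 64 to 271 members in a library, genes of a few CPM rest on few UMIs.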
